A study of Mus musculus with 2 samples.

Results

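Interferon-stimulated genes are the genes that a cell switches on after interferon binds its receptor, and most encode antiviral proteins. The 43 genes described here were taken by symbol from both deposited tables, and all 43 were found, with 1 record each, among 23284 gene symbols. They were compared between 2 RNA sequencing libraries made from primary medulloblastomas, tumours of the cerebellum, dissected from mice, with 1 library for each genotype. The first library came from a Brg1 knockout tumour (CAG-CreER, Rosa26-SmoM2, Brg1F/F) and the second from a Brg1 wild-type tumour (CAG-CreER, Rosa26-SmoM2, Brg1+/+). Both genotypes carry SmoM2, an activated form of Smoothened that switches on Hedgehog signalling, and both received tamoxifen 10 times, every other day, to activate the Cre recombinase. Cre was driven by CAG, a promoter active in most cell types, so recombination need not have been limited to tumour cells. The labels give neither the cells in which it took place nor the age of the mice. The study asked how expression in this tumour differs after conditional knockout of Smarca4, the gene for the chromatin remodelling ATPase Brg1.

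Each genotype is represented by a single library, so no replicate error and no test can be given, and every difference described is one between those 2 libraries. Values are FPKM as deposited, that is, sequenced fragments divided by transcript length and by how many fragments of that library mapped. Ratios are log2((knockout FPKM + 1)/(wild-type FPKM + 1)), so that a value above 0 is higher in the knockout library. A gene is called higher or lower where this ratio reaches 2-fold, a log2 ratio of 1 or -1. Smarca4 itself had 3.76 FPKM in the knockout library, against 14.05 FPKM in the wild-type library, which is 26.8% of the wild-type level (log2 ratio -1.66).

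In mouse cells the response begins when type I interferon binds Ifnar1 and Ifnar2, or interferon gamma binds Ifngr1 and Ifngr2, and Janus kinases phosphorylate STAT proteins. A complex that holds Stat2 and Irf9 binds the interferon-stimulated response element (ISRE) in promoters, whereas STAT dimers bind the gamma-activated site (GAS). The induced genes include sensors of viral RNA and DNA, proteins that block viral entry, translation or assembly, and Irf7, which raises interferon production further. In the brain, microglia, astrocytes, endothelial cells and neurons can all mount this response.

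The promoter letters of the 43 genes are shown before their levels, because they do not come from the expression values. The genes were listed as interferon-stimulated, a class tied to these elements as described above. A high share of matches is therefore not independent of how the genes were chosen. RefSeq promoters (GRCm38.p6, from 250 bases before to 50 after the start site) were found for 32 of the 43 genes. The core letters of the ISRE, GAAA and again GAAA with any 2 bases between them, were searched on both strands, where the reverse strand reads TTTC, any 2 bases and TTTC. They were present in 16 of the 32 genes (50%), against 1079 of all 27025 genes with a promoter of this length (3.99%). The GAS letters TTCNNNGAA, which read the same on both strands, were present in 9 of the 32 genes (28.1%), against 2582 of 27025 genes (9.55%). Of the 32 genes, 5 held both and 12 held neither. The ISRE matches are printed below for all genes that held them except Ifitm2, Ifitm3, Ifih1 and Oas3 (log2 ratios 0.64, 1.76, 0.64 and 0.63). The letters are in capitals, on the gene's own strand from 5′ to 3′:
Ifit3 (chr19:34583365-34583424, + strand): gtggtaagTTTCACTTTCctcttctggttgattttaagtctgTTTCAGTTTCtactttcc
Ifit1 (chr19:34640777-34640821, + strand): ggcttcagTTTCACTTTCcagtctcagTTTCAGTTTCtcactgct
Isg15 (chr4:156200867-156200904, - strand): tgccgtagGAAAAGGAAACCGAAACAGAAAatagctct
Rsad2 (chr12:26456555-26456580, - strand): ggtccaacTTTCATTTTCagaaaaca
Stat2 (chr10:128270268-128270293, + strand): caccctggTTTCAGTTTCctttccct
Bst2 (chr8:71537579-71537610, - strand): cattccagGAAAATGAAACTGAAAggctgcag
Oas1a (chr5:120907522-120907553, - strand): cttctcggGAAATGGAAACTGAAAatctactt
Gbp2 (chr3:142620596-142620621, + strand): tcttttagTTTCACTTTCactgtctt
Gbp3 (chr3:142559991-142560022, + strand): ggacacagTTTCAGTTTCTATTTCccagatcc
Gbp5 (chr3:142496761-142496786, + strand): ttgtgtagTTTCAATTTCagtttaga
Gbp7 (chr3:142530275-142530300, + strand): gtgtgcagTTTCAGTTTCagttctcc
Ddx58 (chr4:40239806-40239831, - strand): tgaggcagTTTCGATTTCctatggcc
The letters occur in either orientation. Of the genes printed, Isg15 held 3 overlapping matches and Ifit1, Ifit3, Bst2, Oas1a and Gbp3 held 2 each, overlapping in the last 3. Ifitm3, which is not printed, also held 2. A match is a string of letters and not a measured binding site.

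The genes at the ends of the order of log2 ratios are shown with the whole 250 bases before their start sites. The stretch of Ifit3, the gene with the highest ratio, at chr19:34583279-34583528 (+ strand, GRCm38.p6), held both matches printed above, in capitals. The stretch of Samd9l, the only member lower in the knockout library, at chr6:3399572-3399821 (- strand), held neither the ISRE nor the GAS letters:
Ifit3: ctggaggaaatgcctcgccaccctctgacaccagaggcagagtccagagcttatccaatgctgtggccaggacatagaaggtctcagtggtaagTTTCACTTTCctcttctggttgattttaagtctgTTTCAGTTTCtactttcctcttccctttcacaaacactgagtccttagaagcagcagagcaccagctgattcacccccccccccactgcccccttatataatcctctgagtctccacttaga
Samd9l: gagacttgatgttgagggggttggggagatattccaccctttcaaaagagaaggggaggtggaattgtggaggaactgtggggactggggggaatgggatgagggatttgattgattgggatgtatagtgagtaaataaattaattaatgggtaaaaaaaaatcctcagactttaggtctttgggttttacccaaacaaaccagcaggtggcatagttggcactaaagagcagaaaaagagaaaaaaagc

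**Figure D1:**
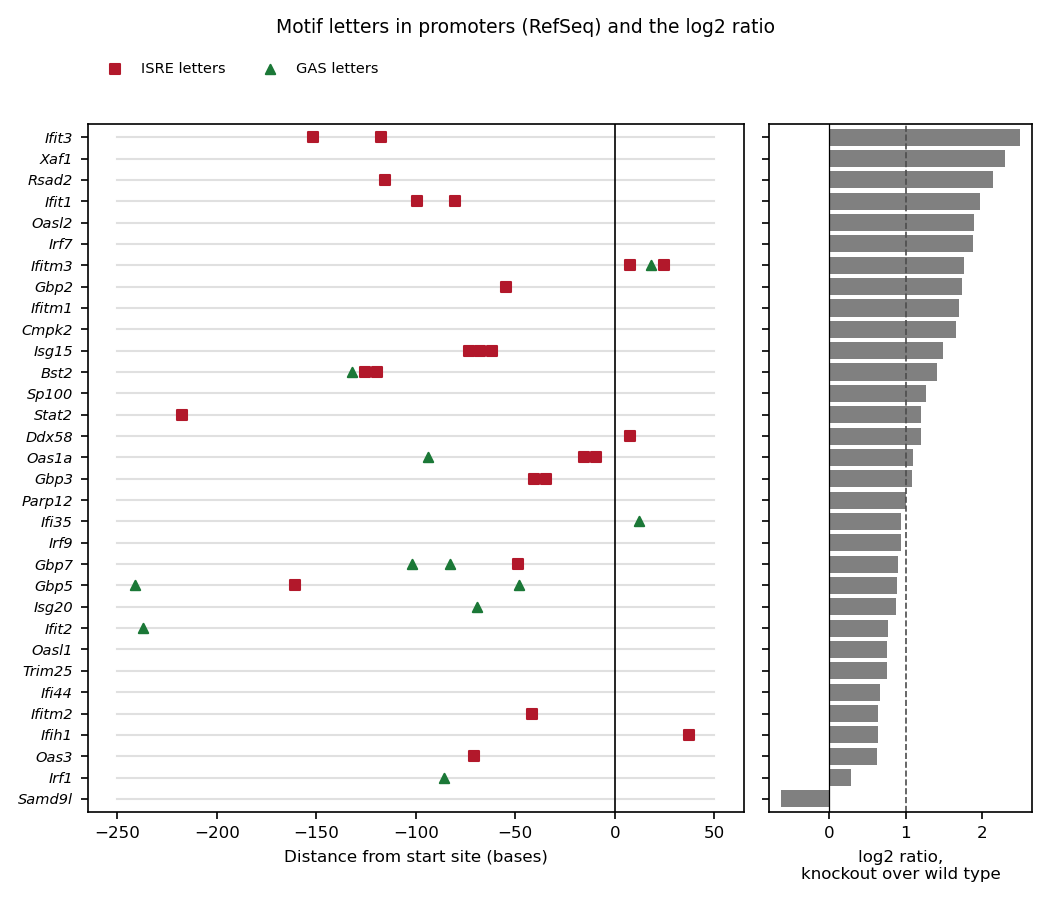
Positions of ISRE letters (squares) and GAS letters (triangles) in the promoters of 32 interferon-stimulated genes, as distance from the start site in bases (left), beside each gene's log2 ratio of knockout over wild type (right, bars from 0). Genes run from the highest ratio, Ifit3 at 2.49, to the lowest, Samd9l at -0.62, and the dashed line marks a 2-fold difference.

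Most interferon-stimulated genes had more signal in the Brg1 knockout tumour than in the wild-type tumour. Of the 43 genes, 26 passed 2-fold upward and 0 passed it downward, and 42 had a log2 ratio above 0. Among the 13279 records at 1 FPKM or more in either library, 16.1% passed the same limit upward and 8.67% downward, and upward it was passed by 9.01% of all 23746 records. The median log2 ratio of the 43 genes was 1.18 (quartiles 0.81 and 1.72), beside 0.09 (quartiles -0.41 and 0.68) over those 13279 records, of which 54.8% lay above 0. Only 4 of the genes, Ifit3, Xaf1, Rsad2 and Usp18, reached 4-fold by this ratio with 1 FPKM added, as did 4.17% of the records. Summed FPKM over the 43 genes was 777.4 in the knockout library, against 301.5 in the wild-type library, or 0.227% against 0.0777% of all FPKM.

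Levels ran from 0.701 to 230.6 FPKM in the knockout library (median 5.27), against 0.288 to 117.3 FPKM in the wild-type library (median 1.55). The 3 Ifitm genes made up 57.9% of the sum in the knockout library and 64.7% in the wild-type library, and without them the sums were 327.4 and 106.3 FPKM. At 1 FPKM, 42 of the genes were reached in at least 1 library, and 11 of these only in the knockout library, so that a filter at that level would keep them through the library in which they were high. Of the 31 genes at 1 FPKM or more in both libraries, 19 were at least 2-fold higher. Since 1 FPKM is added to each value, the ratio understates the difference for genes at low levels. Without it, 37 of 43 were at least 2-fold higher, and the median fold was 3.14.

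The deposited tables also give a lower and an upper bound for each value. The knockout bounds lay wholly above the wild-type bounds for 42 of the 43 genes, and wholly below for Samd9l. That is a loose criterion in these tables, met above by 41.6% and below by 36.1% of the 13279 records. The bounds also often leave out the value they belong to. The value lay inside its bounds for 20 of 43 genes in the knockout library and 23 in the wild-type library. It did so for 48% of the 12994 records at 1 FPKM or more in the knockout library. In the wild-type library it did so for 47.5% of the 12006 records at that level. With the midpoint of the bounds in place of the value, 25 genes were at least 2-fold higher and the median was 1.17.

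**Figure D2:**
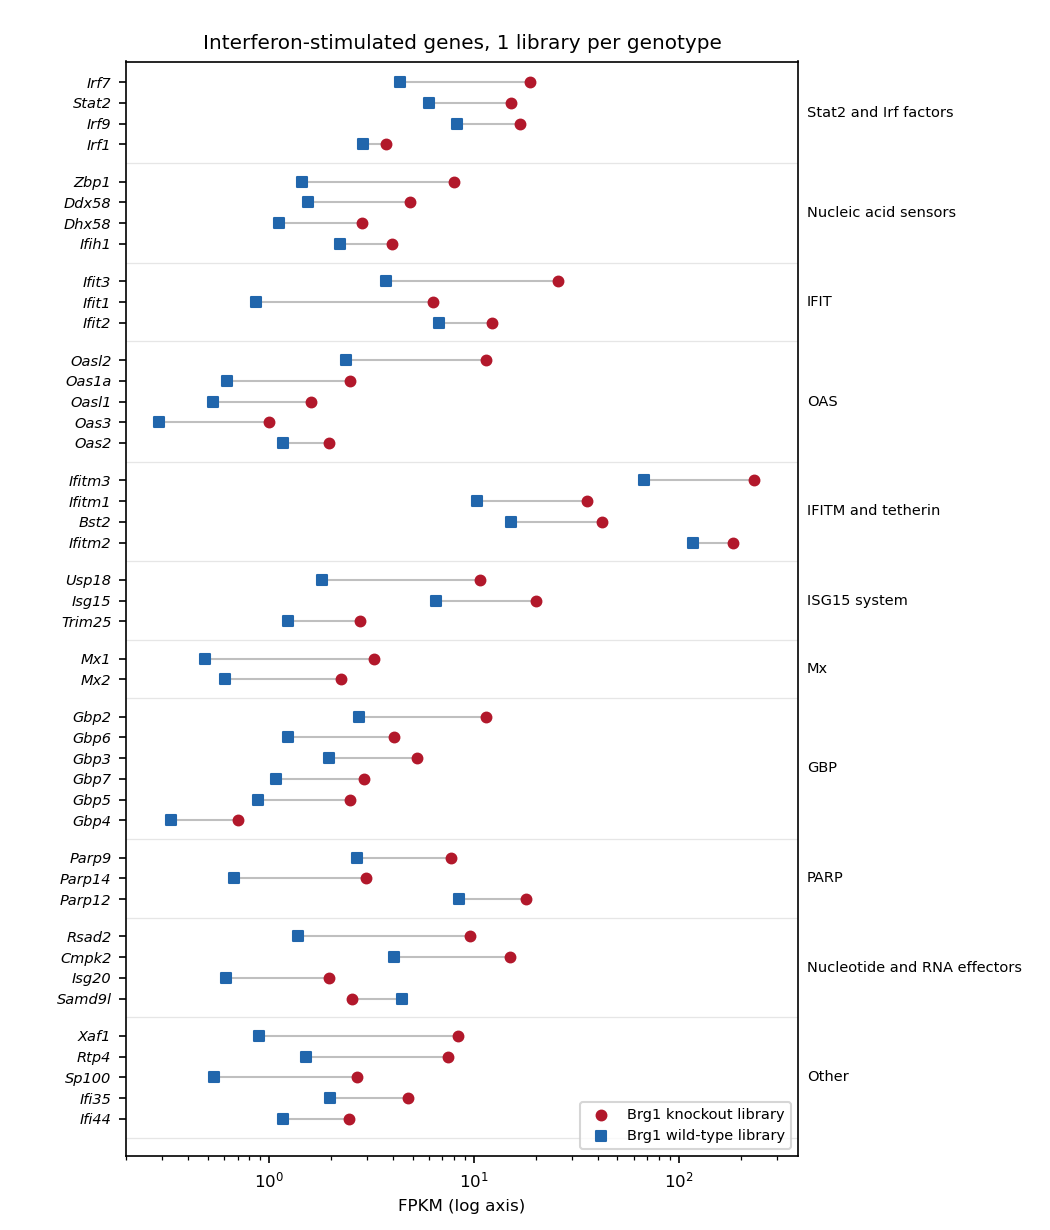
FPKM of the 43 interferon-stimulated genes on a log axis, in the knockout library (circles) and the wild-type library (squares), 1 library per genotype, grouped by role. The knockout value lies right of the wild-type value in 42 of 43 genes, Samd9l being the exception.

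The transcription factors of the response were higher to unequal degrees. Irf7, the factor that amplifies type I interferon production (chromosome 7, 141263183 to 141266424, - strand, mm10), had 18.6 FPKM in the knockout library, against 4.34 FPKM in the wild-type library, and the bounds, 17.5 to 19.8 and 3.81 to 4.87 FPKM, do not meet (log2 ratio 1.88). Stat2, which is activated at the type I receptor, had 15.2 FPKM in the knockout library, against 6.01 FPKM in the wild-type library (log2 ratio 1.21). Its partner Irf9, the DNA-binding subunit of the complex, was just under the limit, with 16.7 FPKM in the knockout library and 8.24 FPKM in the wild-type library (log2 ratio 0.94). Irf1, which responds mainly to interferon gamma, differed least, with 3.71 FPKM in the knockout library and 2.87 FPKM in the wild-type library (log2 ratio 0.28). The 4 factors therefore spanned log2 ratios of 0.28 to 1.88, and 2 of them were at least 2-fold higher. An annotated gene, Gm17334, lies on the strand opposite an exon of Irf1. The sources used here do not say whether counting used the strand, and without it reads of such a pair cannot be told apart.

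Among the sensors of nucleic acid in the cytosol, 2 of 4 were at least 2-fold higher. Zbp1, which binds left-handed nucleic acid and can trigger cell death, had 7.96 FPKM in the knockout library, against 1.45 FPKM in the wild-type library (log2 ratio 1.87). Ddx58, the viral RNA sensor RIG-I, had 4.86 FPKM in the knockout library, against 1.55 FPKM in the wild-type library (log2 ratio 1.20). The other RNA helicases of this family stayed under the limit with 1 FPKM added, though Dhx58 was 2.54-fold higher without it. Dhx58 (LGP2) had 2.84 FPKM in the knockout library and 1.12 FPKM in the wild-type library (log2 ratio 0.86), with the gene Dhx58os on the opposite strand. Ifih1, the long double-stranded RNA sensor MDA5, had 3.99 FPKM in the knockout library and 2.20 FPKM in the wild-type library (log2 ratio 0.64).

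The IFIT genes, whose proteins bind viral RNA and block its translation, held both the highest ratio of all 43 genes and one of the smaller ones, although they are neighbours on chromosome 19. Ifit3 (34583529 to 34588982, + strand, mm10) had 25.6 FPKM in the knockout library, against 3.73 FPKM in the wild-type library, a 6.87-fold difference without the added 1 FPKM (log2 ratio 2.49, rank 316 of 13279 records). Of the 50-base words in its transcripts, 51.2% also occur in Ifit3b, its near copy, so the division of reads between these genes is uncertain. Ifit1 had 6.32 FPKM in the knockout library, against 0.862 FPKM in the wild-type library (log2 ratio 1.97). Ifit2 had 12.2 FPKM in the knockout library and 6.70 FPKM in the wild-type library (log2 ratio 0.77), so in the wild-type library Ifit2 was the most abundant of the 3 genes, and in the knockout library Ifit3 was.

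The OAS genes encode enzymes that make oligoadenylates, the signal that activates RNase L, and related proteins without that activity, and 2 of 5 were at least 2-fold higher. Oasl2 had 11.5 FPKM in the knockout library, against 2.36 FPKM in the wild-type library (log2 ratio 1.89). Oas1a had 2.46 FPKM in the knockout library, against 0.619 FPKM in the wild-type library (log2 ratio 1.10), and shared 57.6% of its 50-base words with other genes, Oas1g among them. The remaining 3 stayed below 2 FPKM in both libraries. Oasl1 had 1.60 FPKM in the knockout library and 0.530 FPKM in the wild-type library (log2 ratio 0.76), Oas3 had 1.001 FPKM in the knockout library and 0.288 FPKM in the wild-type library (log2 ratio 0.63), and Oas2 had 1.96 FPKM in the knockout library and 1.17 FPKM in the wild-type library (log2 ratio 0.45). At these levels the added 1 FPKM sets much of the ratio: with 0.1 FPKM added instead, Oasl1 had a log2 ratio of 1.43, and Oas3 also passed 2-fold.

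The most abundant of the 43 genes encode proteins that act at membranes. Ifitm3, which blocks viral fusion in endosomes (chromosome 7, 141009590 to 141010744, - strand, mm10), had 230.6 FPKM in the knockout library, against 67.6 FPKM in the wild-type library (log2 ratio 1.76). Ifitm1 had 35.6 FPKM in the knockout library, against 10.3 FPKM in the wild-type library (log2 ratio 1.70). Bst2, or tetherin, which holds budding virus particles at the cell surface, had 41.9 FPKM in the knockout library, against 15.1 FPKM in the wild-type library (log2 ratio 1.42). All 3 genes passed 2-fold. Ifitm2, in the same cluster as the other Ifitm genes, was higher by less than 2-fold, with 183.7 FPKM in the knockout library and 117.3 FPKM in the wild-type library (log2 ratio 0.64), and it shared 48.5% of its 50-base words with other genes, Gm45717 among them. In the wild-type library it was the most abundant member, and in the knockout library Ifitm3 was.

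In the ISG15 system, which couples a ubiquitin-like protein to other proteins, 2 of 3 genes were at least 2-fold higher. Isg15 itself had 20.05 FPKM in the knockout library, against 6.48 FPKM in the wild-type library (log2 ratio 1.49). Usp18, which removes ISG15 and also dampens signalling at the type I receptor, had 10.7 FPKM in the knockout library, against 1.80 FPKM in the wild-type library (log2 ratio 2.06), with Gm44148 on the opposite strand. Trim25, a ubiquitin ligase that acts with RIG-I, had 2.78 FPKM in the knockout library and 1.23 FPKM in the wild-type library (log2 ratio 0.76). Both Mx genes, dynamin-like GTPases that trap viral components, were under 1 FPKM in the wild-type library. Mx1 had 3.23 FPKM in the knockout library, against 0.488 FPKM in the wild-type library (log2 ratio 1.51). Mx2 had 2.25 FPKM in the knockout library, against 0.605 FPKM in the wild-type library (log2 ratio 1.02), close to the limit.

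The guanylate-binding proteins, GTPases induced mainly by interferon gamma that attack membranes around pathogens, had a median log2 ratio of 0.99, and 3 of 6 were at least 2-fold higher. Gbp2 led the family, with 11.5 FPKM in the knockout library, against 2.73 FPKM in the wild-type library (log2 ratio 1.74). Gbp6 had 4.07 FPKM in the knockout library, against 1.24 FPKM in the wild-type library (log2 ratio 1.18), but shared 70.7% of its 50-base words with other genes. With Gm43302, which overlaps its exons on the same strand, it shared 65%, and Gbp10 was also among those genes. Gbp3 had 5.26 FPKM in the knockout library, against 1.96 FPKM in the wild-type library (log2 ratio 1.08, or 0.97 with the midpoints of the bounds). The other 3 genes stayed under the limit with 1 FPKM added, though all 3 were at least 2-fold higher without that addition. Gbp7 and Gbp5 had log2 ratios of 0.90 and 0.89. They had 2.89 and 2.48 FPKM in the knockout library and 1.08 and 0.879 FPKM in the wild-type library. Gbp4 was the only one of the 43 genes under 1 FPKM in both libraries, with 0.701 FPKM in the knockout library and 0.333 FPKM in the wild-type library (log2 ratio 0.35). Gbp2, Gbp3, Gbp5 and Gbp7 lie in 1 cluster on chromosome 3, and all 4 hold the ISRE letters printed above.

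All 3 PARP genes, which encode ADP-ribosyltransferases or related proteins, were at least 2-fold higher. Parp9 had 7.73 FPKM in the knockout library, against 2.68 FPKM in the wild-type library (log2 ratio 1.25), and overlaps its partner gene Dtx3l on the opposite strand. Parp14 had 2.95 FPKM in the knockout library, against 0.675 FPKM in the wild-type library (log2 ratio 1.24). Parp12 lay just inside the limit, with 17.9 FPKM in the knockout library and 8.43 FPKM in the wild-type library (log2 ratio 1.005).

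Among genes that act on nucleotides and RNA, the neighbours Rsad2 and Cmpk2 were both higher. Rsad2, or viperin, which makes a chain-terminating nucleotide, had 9.53 FPKM in the knockout library, against 1.38 FPKM in the wild-type library (log2 ratio 2.15). Cmpk2, a kinase that supplies nucleotides in mitochondria, had 14.99 FPKM in the knockout library, against 4.06 FPKM in the wild-type library (log2 ratio 1.66). Isg20, an RNA exonuclease, had 1.96 FPKM in the knockout library and 0.612 FPKM in the wild-type library (log2 ratio 0.88). Samd9l, an antiviral and growth-restraining protein (chromosome 6, 3372258 to 3399571, - strand, mm10), went the other way, with 2.54 FPKM in the knockout library and 4.44 FPKM in the wild-type library (log2 ratio -0.62). Its bounds were 2.56 to 3.14 FPKM in the knockout library and 5.35 to 6.24 FPKM in the wild-type library, and both values lie under their own bounds; the midpoints gave a log2 ratio of -0.82.

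Of the 5 remaining genes, 3 were at least 2-fold higher. Xaf1, a pro-apoptotic antagonist of XIAP, had 8.32 FPKM in the knockout library, against 0.895 FPKM in the wild-type library (log2 ratio 2.30), and its 9.29-fold difference without the added 1 FPKM was the largest of the 43 genes. Rtp4, a chaperone of membrane receptors, had 7.41 FPKM in the knockout library, against 1.51 FPKM in the wild-type library (log2 ratio 1.75). Sp100, a protein of nuclear bodies, had 2.69 FPKM in the knockout library, against 0.540 FPKM in the wild-type library (log2 ratio 1.26). Ifi35 had 4.75 FPKM in the knockout library and 1.99 FPKM in the wild-type library (log2 ratio 0.95), and of all genes under the limit it lay nearest to it. Ifi44 had 2.44 FPKM in the knockout library and 1.16 FPKM in the wild-type library (log2 ratio 0.67, or 0.45 with the midpoints).

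**Figure D3:**
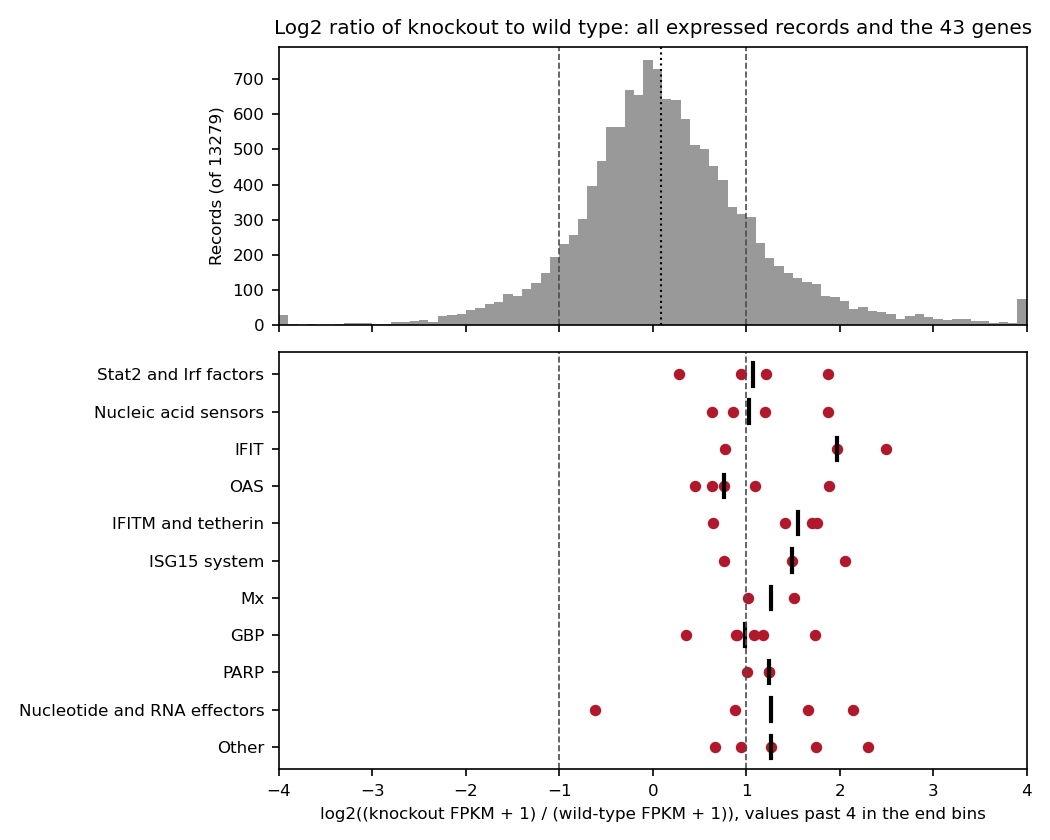
Log2 ratio of knockout over wild type for the 13279 records at 1 FPKM or more in either library (top, bins of 0.1, dotted line at the median of 0.09) and for the 43 interferon-stimulated genes by role (bottom, 1 point per gene, black bar at the role's median). Dashed lines mark 2-fold, and role medians run from 0.76 for OAS genes to 1.97 for IFIT genes.

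Among the 32 genes with a promoter, those with and without the ISRE letters overlapped in their log2 ratios. The 16 genes with the letters had a median log2 ratio of 1.21, and 11 of them were at least 2-fold higher, beside a median of 0.94 and 7 of 16 for the genes whose promoter lacked them. Xaf1, Oasl2 and Irf7 were among the highest ratios and held neither set of letters in this window, whereas Ifih1 and Oas3 held the ISRE letters and had log2 ratios of 0.64 and 0.63. Outside the 43 genes, 323 genes at 1 FPKM or more in either library held the ISRE letters, and 68 of these (21.1%) passed 2-fold upward and 8.67% downward. Of the 9058 such genes without the letters, 15.3% passed it upward and 8.07% downward. The promoter windows are those of RefSeq start sites, and which start sites these tumours use was not measured.

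Outside the 43 genes, 100 genes of the interferon pathway were listed by role and found in the tables; 20 passed 2-fold upward and 2 downward (median log2 ratio 0.39). Upward the limit was passed by 16.1% of the records at 1 FPKM or more and by 9.01% of all records. Downward it was passed by 8.67% of the records at 1 FPKM or more. Of the 100 genes, 68 were at 1 FPKM or more in a library. Interferons themselves were at or near 0. Of 19 ligand genes, 16 were listed at 0 in both libraries, among them Ifna1, Ifna2, Ifna5 and Ifne, and none reached 1 FPKM. Ifna4, Ifng and Ifnb1 had 0.0539, 0.0503 and 0.0209 FPKM in the knockout library and were listed at 0 in the wild-type library. The depth of the libraries is not known, so how little of these transcripts could have been seen cannot be stated.

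Among the interferon receptors and their kinases, 2 of 9 passed 2-fold upward and 0 downward (median 0.58), a share near the 16.1% of all records at 1 FPKM or more. Ifngr1, the ligand-binding chain for interferon gamma, had 15.5 FPKM in the knockout library, against 6.59 FPKM in the wild-type library (log2 ratio 1.12). Il10rb, a chain of the interferon lambda and interleukin-10 receptors, had 7.79 FPKM in the knockout library, against 3.36 FPKM in the wild-type library (log2 ratio 1.01). The type I receptor chains were higher by less than 2-fold: Ifnar1 had 7.66 FPKM in the knockout library and 4.69 FPKM in the wild-type library (log2 ratio 0.61), and Ifnar2 had 13.9 FPKM in the knockout library and 8.95 FPKM in the wild-type library (log2 ratio 0.58). Ifngr2, Jak1 and Jak2 had log2 ratios of 0.54, 0.93 and 0.50, Tyk2 had -0.14, and the lambda receptor chain Il28ra was at 0.0425 FPKM in the knockout library and 0.0199 FPKM in the wild-type library.

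Among 15 further genes of nucleic acid sensing, 2 passed 2-fold upward and 0 downward (median 0.43), no larger a share than the 16.1% of all records at 1 FPKM or more. Tlr7, the endosomal receptor for single-stranded RNA, had 13.2 FPKM in the knockout library, against 1.97 FPKM in the wild-type library (log2 ratio 2.26). Tlr3, which binds double-stranded RNA, had 9.99 FPKM in the knockout library, against 3.32 FPKM in the wild-type library (log2 ratio 1.35). Of 12 negative regulators and nucleic acid clearance genes, 0 were higher and 1 lower (median 0.12). For the lower gene this is a share near the 8.67% of all records at 1 FPKM or more. That gene, Rnaseh2a, encodes the catalytic subunit of RNase H2 and only just reached the limit. It had 10.8 FPKM in the knockout library, against 22.6 FPKM in the wild-type library (log2 ratio -1.001). The other subunits, Rnaseh2b and Rnaseh2c, had log2 ratios of -0.63 and -0.85. Markers of dividing cells were lower in the same library (6 of 6 at least 2-fold, median -1.69), and their part in the RNase H2 values was not tested.

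A second list of 44 interferon-stimulated genes outside the 43 had 15 at least 2-fold higher and 1 lower (median 0.78). Of these 44 genes, 32 were at 1 FPKM or more in a library. Among all records at that level, 16.1% passed 2-fold upward and 8.67% downward, and of all records 9.01% passed it upward. The highest ratios of the list were 2.26 for Ifi202b and 1.78 for Ifi204, DNA-binding proteins of 1 mouse family, and 1.99 for Slfn2, a schlafen. Ifi202b had 14.03 FPKM in the knockout library, against 2.14 FPKM in the wild-type library. Slfn2 had 10.7 FPKM in the knockout library, against 1.94 FPKM in the wild-type library. Lgals3bp, a secreted glycoprotein, was the most abundant of the list, with 73.1 FPKM in the knockout library, against 23.4 FPKM in the wild-type library (log2 ratio 1.60). Ifi27l2a and Iigp1, an immunity-related GTPase, had log2 ratios of 1.56 and 1.52. The only lower gene was Slfn9, with 2.29 FPKM in the knockout library, against 6.08 FPKM in the wild-type library (log2 ratio -1.11).

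**Figure D4:**
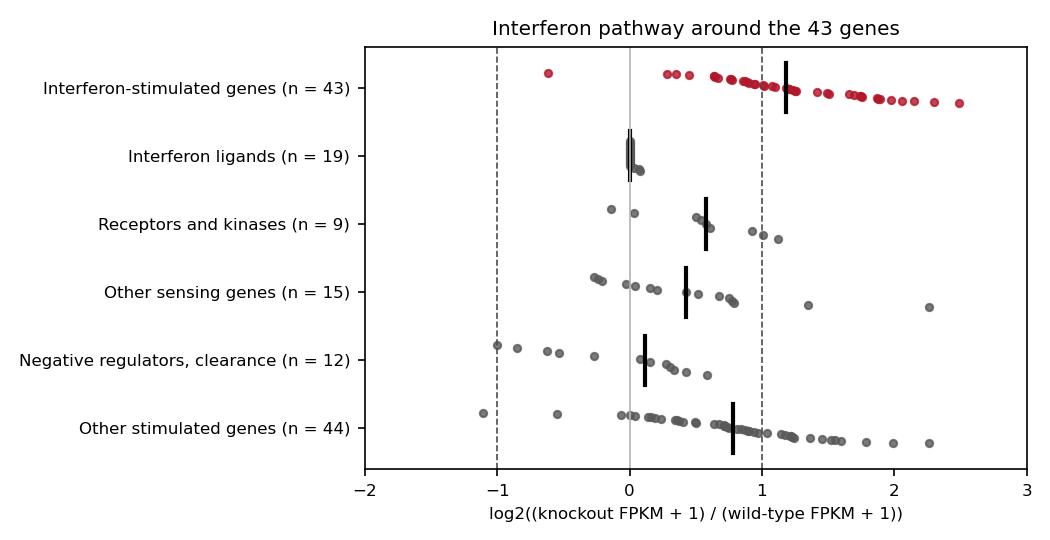
Log2 ratio of knockout over wild type for the 43 interferon-stimulated genes (red) and for the pathway lists around them (grey), 1 point per gene, with a black bar at each list's median and dashed lines at 2-fold. The medians are 1.18 for the 43 genes, 0.58 for receptors and kinases, 0.43 for other sensing genes, 0.12 for negative regulators and 0.78 for the other stimulated genes, and the ligands lie at 0 or just above it.

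The libraries also differed in markers of many cell types, and in whole tumour tissue fewer cells of a type and less RNA per cell cannot be told apart. Beside the counts below, 16.1% of all records at 1 FPKM or more passed 2-fold upward. Of the microglia and macrophage markers 8 of 15 were at least 2-fold higher, with a median log2 ratio of 1.20, beside 1.18 for the interferon-stimulated genes. The markers ran from 0.14 to 2.53, and with midpoints of the bounds the 2 medians were 0.99 and 1.17. These markers summed to 964.7 FPKM in the knockout library and 613.5 FPKM in the wild-type library, and no marker was at 0. Lyz2 alone made up 584.5 FPKM of the knockout sum and 389.7 FPKM of the wild-type sum. Lyz2 and Cd68, among the most abundant of them, differed by less, with log2 ratios of 0.58 and 0.37. Neutrophil markers summed to 150.8 FPKM in the knockout library, against 28.98 FPKM in the wild-type library (3 of 6 higher, median 1.08, or 0.77 with midpoints). Of these sums, S100a8 made up 119.1 FPKM in the knockout library and 21.8 FPKM in the wild-type library. Both S100a8 values lie above their own bounds, 35.8 to 44.0 FPKM in the knockout library and 5.91 to 9.80 FPKM in the wild-type library. Monocyte markers had 1 of 3 higher (median 0.45), summing to 11.6 FPKM in the knockout library and 6.81 FPKM in the wild-type library.

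Most lymphocyte markers were under 1 FPKM in both libraries, Cd4 and Cd79a being the exceptions. Cd4 had 1.78 FPKM in the knockout library and 1.43 FPKM in the wild-type library, and Cd79a had 0.359 FPKM in the knockout library and 1.08 FPKM in the wild-type library (log2 ratio -0.61). T cell markers had 0 of 9 higher and summed to 3.66 FPKM in the knockout library and 2.24 FPKM in the wild-type library. Markers of natural killer and cytotoxic cells had 0 of 7 higher and summed to 1.08 FPKM in the knockout library and 0.557 FPKM in the wild-type library, with Klrb1c listed at 0 in both. B cell markers had 0 of 5 higher and summed to 0.683 FPKM in the knockout library and 1.30 FPKM in the wild-type library. Of 7 dendritic cell markers 1 was higher, Flt3, with 3.06 FPKM in the knockout library, against 0.0637 FPKM in the wild-type library; the list summed to 4.33 FPKM in the knockout library and 1.88 FPKM in the wild-type library. Siglech, a marker of plasmacytoid dendritic cells and microglia, had 0.561 FPKM in the knockout library, and its wild-type value was 0. Itgax ran the other way, with 0.597 FPKM in the knockout library and 1.65 FPKM in the wild-type library (log2 ratio -0.73), as did Cd209a, at 0 in the knockout library and 0.129 FPKM in the wild-type library.

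Markers of neurons, oligodendrocytes and astrocytes had larger median log2 ratios than those of microglia and macrophages. Among all records at 1 FPKM or more, 16.1% passed 2-fold upward and 8.67% downward. Purkinje cell markers had 8 of 8 higher (median 5.06), mature granule neuron markers 6 of 6 (median 4.25), mature oligodendrocyte markers 8 of 8 (median 3.17), and astrocyte markers 8 of 9 (median 1.76), with astrocyte markers summing to 2529.5 FPKM in the knockout library, against 501.8 FPKM in the wild-type library. Endothelial markers had 2 of 10 higher (median 0.58), markers of pericytes, fibroblasts and meninges 3 of 8 (median 0.87), erythroid markers 4 of 7 records (median 1.56), and choroid plexus markers 0 of 4 (median 0.08). Markers of granule precursors and Hedgehog tumour cells, the labelled tissue's own, had 0 of 7 higher and 5 of 7 lower (median -2.62), summing to 204.1 FPKM in the knockout library, against 555.8 FPKM in the wild-type library. All 7 were at 1 FPKM or more in both libraries. Zic1 was the only one with a log2 ratio above 0, with 99.8 FPKM in the knockout library and 74.6 FPKM in the wild-type library. Both Zic1 values lie under their own bounds, and the midpoints gave a log2 ratio of only 0.0075. Ccnd1 had 16.6 FPKM in the knockout library, against 107.1 FPKM in the wild-type library. Mycn, a Hedgehog target, had 8.52 FPKM in the knockout library, against 85.8 FPKM in the wild-type library. How much of the difference in interferon-stimulated genes goes with these marker differences was not tested.

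**Figure D5:**
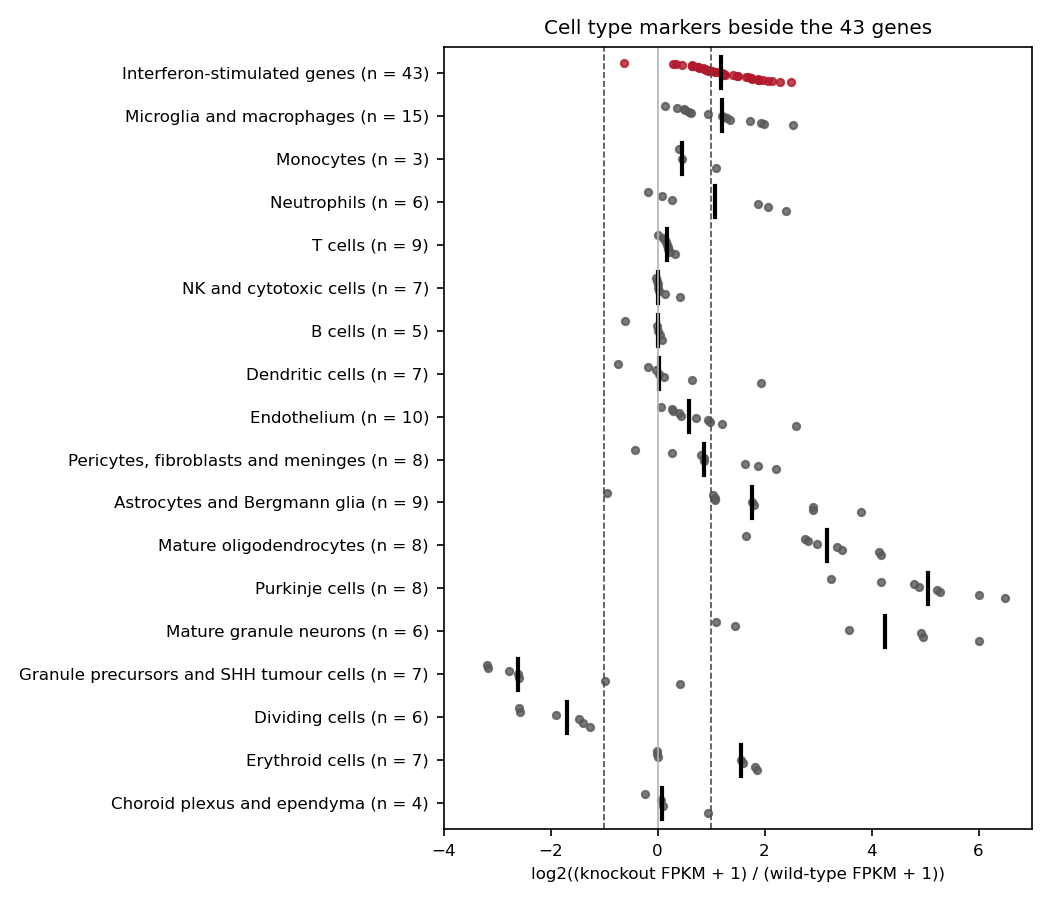
Log2 ratio of knockout over wild type for the 43 interferon-stimulated genes (red) and for cell type marker lists (grey), 1 point per record, with a black bar at each list's median and dashed lines at 2-fold. Microglia and macrophage markers have a median of 1.20 beside 1.18 for the interferon-stimulated genes, the medians of T, natural killer and B cell markers run from 0.015 to 0.17, and those of tumour cell and dividing cell markers are -2.62 and -1.69.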

How the data were processed

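Total RNA from dissected tumours was extracted with TRIzol, prepared with the Illumina RNA-Seq Preparation Kit and sequenced on an Illumina HiSeq instrument, per the labels' protocols. Each deposited FPKM value stands beside its bounds and a status word, per the file headers. Of tools and builds, the submitters' processing notes name Cuffdiff 2.1.1 and mm10, without saying what each was used for; no aligner, annotation or strand setting is given in the sources used here. All 43 genes had the status OK in both libraries. Gene starts in the files count from 0 and are given here from 1. No value of 1 read could be recovered from low FPKM, so the depth is unknown and no counting error can be given. There are no replicates, so nothing says how far tumours of 1 genotype differ.

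FPKM were used as deposited, with 1 FPKM added before log2 ratios and a limit of 2-fold. Shared 50-base words and overlapping exons came from GENCODE M21, promoters from RefSeq (GRCm38.p6). Tables were handled with pandas 2.3.3 and numpy 2.4.6 under Python 3.11.15, and plots drawn with matplotlib 3.10.9. The 43 genes, the pathway lists and the marker lists were chosen with earlier results of these data known. Outside the 43 genes the text names Smarca4, ligand, receptor and kinase genes, the largest log2 ratios of each other pathway list (up to 6), and the most abundant markers (up to 3) or those at 0; Mycn and Cd209a were named after their values were seen. Symbols not matched in the tables (11 of 111 pathway symbols, many of them other names of listed genes) are not analysed here. Alternatives tried were the added FPKM, scaling, centring, midpoints of the bounds, filters on low values and other fold limits. Of the 100 pathway genes, 1 enters the totals over all 100 but no list or plot, and is not reported here.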

Additional observations from a re-analysis of the deposited data

How the results depend on the processing

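The 43 interferon-stimulated genes kept a median log2 ratio above 0 in every setting tried, from 1.09 after centring on the median of all records to 1.66 at a mean of at least 5 FPKM, and 42 of 43 lay above 0 in each setting compared gene by gene. At least 2-fold higher in all 6 of those settings were 23 genes. Mx2 and Parp12 dropped under the limit after upper quartile scaling and after centring (log2 ratios 0.93 and 0.92), Gbp3 after centring (0.99) and with midpoints (0.97), and 10 others passed it in some setting, mostly with less FPKM added. Rescaling both libraries to the same FPKM sum moved the median of all records by 0.15, to 0.24, and that of the 43 genes to 1.30; 29 of them were then at least 2-fold higher, and among all records past the limit 74.8% were higher in place of 65%.

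Counts moved with the limit used. Of the 43 genes, 4 were at least 4-fold higher, 42 were higher and 1 lower by the bounds, 1 was lower by 1.5-fold, and at a mean of at least 5 FPKM 14 of 17 were higher. Of the 100 pathway genes, 39 were higher with 0.1 FPKM added, 40 higher and 4 lower by 1.5-fold, 2 higher and 0 lower by 4-fold, 12 higher and 1 lower at a mean of at least 5 FPKM, 55 higher and 8 lower by the bounds, and 0 lower after rescaling to the same sum. Of all records, 3727 were higher and 2386 lower by 1.5-fold, 554 and 199 by 4-fold, and 5526 and 4796 by the bounds. At a mean of at least 5 FPKM, 1257 records were higher and the median of all records was -0.0023; fewer records enter there, and the cause of the shift in the median was not tested.

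No paired analysis was possible because each genotype has 1 library. For the same reason no library could be left out. Members that share over 10 percent of their 50-base words with other genes could be left out, an alternative chosen after seeing the data, and the median of the remaining 36 was 1.21; that of the 42 genes at 1 FPKM or more in a library, also chosen after seeing the data, was 1.19.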
